A study of Callithrix jacchus and Rattus norvegicus and Loxodonta africana with 31 samples.

Results

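The enzymes that attach glucuronic acid, sulfate or glutathione to small molecules were followed by gene symbol through the tissue expression tables of the rat and the common marmoset, a New World monkey. A row was taken where its symbol, in any letter case, began with UGT, a family number from 1 to 3 and a subfamily letter, with SULT, a number and a letter, with GST, a class letter (A, K, M, O, P, T or Z) and a number, or with MGST and a number. This found 59 of the 40167 rows in both tables, 5 of 19681 in the marmoset and 54 of 20486 in the rat. A pair of rat rows named Gstm5 held the same value in every column and was counted once, which left 53 rat rows, made up of 24 GST, 16 SULT, 10 UGT and 3 MGST rows. In the marmoset table many rows carried only a locus identifier in place of a symbol, and 16 further rows fitted the same name pattern only through a name table that pairs Ensembl gene identifiers with symbols. Those 16 rows are given beside the 5, always as named through the name table, and are not counted among the 59.

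UDP-glucuronosyltransferases (UGT) sit in the endoplasmic reticulum and transfer glucuronic acid to bilirubin, steroids, bile acids and drugs. Cytosolic sulfotransferases (SULT) transfer sulfate from the carrier PAPS to phenols, hormones and sterols, and glutathione S-transferases (GST, and the membrane-bound MGST) join glutathione to reactive electrophiles. Liver is the organ best known for all these reactions, kidney carries out many of them too, and rodent liver is known for conjugation enzymes that differ between males and females.

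The series held 31 samples of 4 species and addressed the evolution of Y chromosome genes in mammals. The rat (12 samples) and the marmoset (14 samples) each gave kidney, liver, heart, frontal cortex and cerebellum from 1 male and 1 female, testis from males and ovary from the female. No strain, age, genotype or treatment is named in the labels, so each group is a tissue of a species. Each table had 10 columns of FPKM (mapped fragments scaled to transcript length and to the mapped fragments of the library), with 1 column of each sex for kidney, liver, heart and brain. The brain columns did not say whether they hold frontal cortex, cerebellum or both, the marmoset testis column stood for 3 samples of 2 males and is the authors' value, and the rat testis and both ovary columns were 1 library each. Since each species had 1 male and 1 female, sex and animal cannot be told apart, and p-values measure only the spread between these libraries.

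Most marker lists summed highest in the columns of their own tissue, but not all. Astrocyte markers summed to 2701 FPKM in the male and 699 FPKM in the female marmoset liver, against 110 and 72.7 FPKM in the male and female marmoset brain. Sertoli and Leydig markers summed to 659 FPKM in the rat ovary, against 269 FPKM in the rat testis. Hepatocyte markers summed to 92694 FPKM in the male and 69354 FPKM in the female rat liver, against at most 618 FPKM in any other rat column, and to 48618 and 52988 FPKM in the male and female marmoset liver, against at most 530 FPKM in any other marmoset column. Proximal tubule markers summed to at least 1371 FPKM in each kidney column and at most 10.7 FPKM in any other column. Markers of cortical and of cerebellar neurons each summed to over 100 FPKM in all 4 brain columns. Testis germ cell markers summed to 9050 FPKM in the rat testis and only 30.0 FPKM in the marmoset testis, where 2 of the 4 listed genes had a row. In the brain, the female rat column held fewer cerebellar markers (108 FPKM) than the male column (648 FPKM). The 10 highest genes took 3.45 to 30.6% of the summed FPKM of a marmoset column and 21.1 to 83.3% of that of a rat column.

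Most of the rat enzymes were liver enzymes by level. Of the 53 rat rows, 45 reached at least 10 FPKM in some column, and 5 stayed at or under 0.571 FPKM in all of them (Gstm6l, Sult6b1, Ugt2a1, Ugt2b7 and the Ugt1a8 row ENSRNOG00000046998). Among the 48 rows of at least 1 FPKM, the highest tissue was liver for 30, kidney for 9, testis for 5, brain for 2 (Sult4a1 and Sult1d1), heart for 1 (Mgst3) and ovary for 1 (Sult5a1). Summed over its 10 rows, the UGT family came to 1932 FPKM in the male and 1897.5 FPKM in the female liver, against 259 and 437 FPKM in the male and female kidney and at most 15.4 FPKM in any other column. The SULT rows summed to 2408 FPKM in the male and 7635 FPKM in the female liver, and Sult2a1 led that sum in the female while Sult1a1 led it in the male. The GST rows were the most widely spread, with sums of 5957 and 5370 FPKM in the male and female liver, 1820 and 1357 FPKM in the male and female kidney, 1698 FPKM in testis and 1474 FPKM in ovary.

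**Figure D1:**
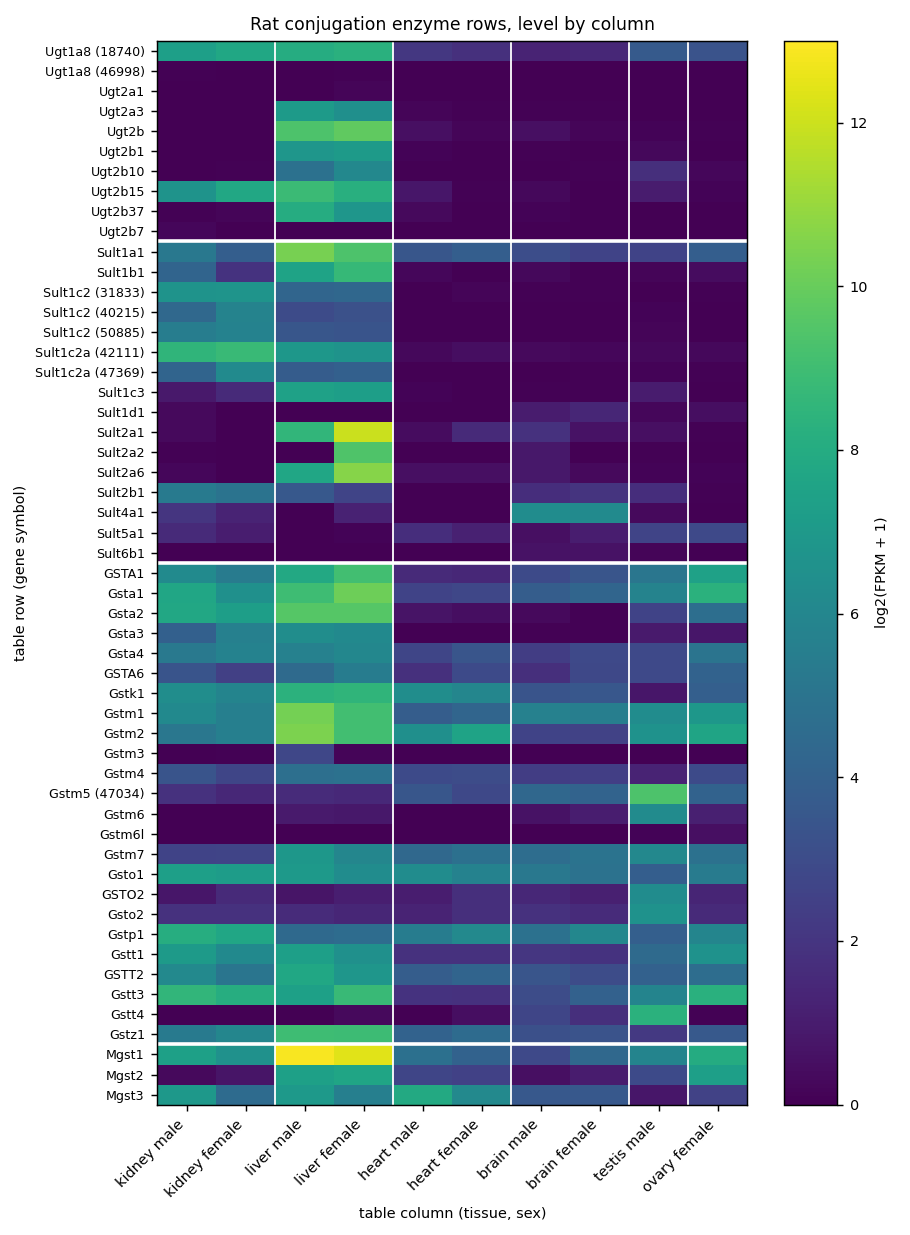
Level of each of the 53 rat rows in the 10 table columns, as log2(FPKM + 1), with white lines between the UGT, SULT, GST and MGST rows (top to bottom) and 5 digits of the identifier behind symbols that occur more than once. The liver columns are the brightest for 30 rows, and Gstm5, Gstm6, Gstt4, Gsto2 and GSTO2 stand out in testis.

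Liver against the mean of kidney, heart and brain was tested on the log2(FPKM + 1) scale with limma, with the animal as a block, over all 14560 rat genes that reached 1 FPKM in at least 2 of the 8 libraries. Calls needed a log2 difference of at least 1 with a p, adjusted by Benjamini-Hochberg over all these genes, under 0.05. Of the 53 rat rows 44 passed the filter, and 34 of them were called higher in liver, against 19.6% of all genes tested, while 4 were called lower, against 19.1% of all genes. In both directions together this was 38 of 44 rows, against 38.7% of all genes. The 9 rows not tested were the 5 lowest ones, named above, and Gstm3, Gstm6, Sult1d1 and Sult2a2, each at 1 FPKM or more in too few of the 8 libraries. The median difference was 3.60 over the 44 rows and -0.06 over all genes. For 7 of the 34 rows, the filter was passed only through the liver libraries (Sult1c3, Sult2a6, Ugt2a3, Ugt2b, Ugt2b1, Ugt2b10 and Ugt2b37), so these had to come out higher, and of the other 37 rows 27 were called higher and 4 lower. In bulk tissue, more cells of a type and more RNA per cell cannot be told apart.

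All 7 UGT rows tested rose in liver, but for 5 of them the filter had fixed this direction, and only Ugt2b15 and a Ugt1a8 row could have gone either way. Ugt2b, of the family that conjugates steroids and drugs, had 659 FPKM in the male and 894 FPKM in the female liver and at most 0.448 FPKM in any kidney, heart or brain column, a log2 difference of 9.34 ± 0.21 (SE, limma adjusted p = 6.8e-07). Ugt2b37 had 266 FPKM in the male and 111 FPKM in the female liver, and Ugt2b1 had 111 FPKM in the male and 135 FPKM in the female. Neither reached 0.3 FPKM in any kidney, heart or brain column. Ugt2a3 had 133 FPKM in the male and 89.2 FPKM in the female liver, and Ugt2b10 had 28.2 FPKM in the male and 65.7 FPKM in the female, both with under 0.2 FPKM in kidney, heart and brain. Ugt2b15 differed from these neighbours on chromosome 14, where 8 of the 10 UGT rows lie. Besides 470.2 FPKM in the male and 297 FPKM in the female liver it had 100.1 FPKM in the male and 220.2 FPKM in the female kidney. The Ugt1a8 row ENSRNOG00000018740 on chromosome 9 was likewise shared by both organs, at 265 and 305 FPKM in the male and female liver and 158 and 216 FPKM in the male and female kidney. UGT1A enzymes share their last exons, and the sources used here do not say how reads of such exons were divided, so this row cannot be assigned to one enzyme with certainty.

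Most sulfotransferases tested were either liver rows or rows shared by liver and kidney. In liver, 10 of 13 tested SULT rows were called higher, against 19.6% of all genes, and 2 lower (Sult4a1 and Sult5a1), and Sult2b1 was not called. Sult1c3 and Sult2a6 passed the filter only through liver, and without them 8 of 11 were called higher and 2 lower. Sult1a1, the main phenol sulfotransferase, had 1290 FPKM in the male and 653 FPKM in the female liver, while its next highest level was 36.5 FPKM in the male kidney (log2 difference 6.14 ± 0.35, SE, limma adjusted p = 2.9e-05). Sult1b1, which acts on phenols and thyroid hormones, had 189 FPKM in the male and 424 FPKM in the female liver, against 17.5 and 2.78 FPKM in the male and female kidney. The hydroxysteroid sulfotransferase Sult2a1 was the highest of all SULT rows, with 376 FPKM in the male and 3986.5 FPKM in the female liver and at most 2.65 FPKM in kidney, heart and brain. Its log2 difference was 9.45 ± 0.80 (SE, limma adjusted p = 0.00016), with the largest standard error among the 44 rows, since both livers lay far apart. The 3 Sult1c2 rows were called higher in liver too, but with the brain columns left out their log2 differences were 0.87, 0.52 and 0.59, under the threshold. The Sult1c2a row ENSRNOG00000047369 was called at 2.14 and lost its call without the male liver (limma adjusted p = 0.0521).

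Among the glutathione enzymes, 15 of 21 GST rows and 2 of 3 MGST rows were called higher in liver, against 19.6% of all genes. Another 2 GST rows and no MGST row were called lower, against 19.1% of all genes. Mgst1, a membrane-bound transferase of the endoplasmic reticulum and mitochondria, was the highest row of the whole group, with 7466 FPKM in the male and 5452.5 FPKM in the female liver. The kidney columns of Mgst1 held 166 FPKM in the male and 94.1 FPKM in the female, and its log2 difference for liver was 7.62 ± 0.47 (SE, limma adjusted p = 4.3e-05). Mgst2 had 164 FPKM in the male and 198 FPKM in the female liver, and its highest kidney, heart or brain level was 5.56 FPKM. The alpha-class row Gsta2 had 752 FPKM in the male and 758 FPKM in the female liver, against 220.3 and 156 FPKM in the male and female kidney and under 1 FPKM in heart and brain. Gstz1, a step of tyrosine breakdown, had 505 FPKM in the male and 487 FPKM in the female liver and at most 62.5 FPKM in the other tissues tested. The mu-class rows Gstm1 and Gstm2 reached 1251.5 and 1386.5 FPKM in the male liver, and 537 and 529 FPKM in the female liver. The rows GSTA1 and Gsta1 are separate genes in the table but moved as a pair, with GSTA1 at 0.302 to 0.597 times the level of Gsta1 in every column, and reads that fit both could have been split between them.

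Further GST rows were called higher in liver. Gstk1 had 326 FPKM in the male and 366 FPKM in the female liver, and still between 56.6 and 82.8 FPKM in kidney and heart. Gsta3 had 81.6 FPKM in the male and 71.4 FPKM in the female liver, against 15.1 and 49.3 FPKM in the male and female kidney, and was close to 0 in heart and brain. Of the theta class, which sits in a group of 4 rows on chromosome 20, GSTT2 had 215 FPKM in the male and 112 FPKM in the female liver, against 68.4 and 32.0 FPKM in the male and female kidney. Gstt1 was nearly as high in kidney, with 159.75 FPKM in the male and 91.0 FPKM in the female liver, against 135 and 71.5 FPKM in the male and female kidney. Gstm7 had 115 FPKM in the male and 60.8 FPKM in the female liver, Gstm4 had 26.1 and 28.1 FPKM, and GSTA6 had 21.8 and 43.7 FPKM in the male and female liver, each above all 6 kidney, heart and brain libraries. Gsta4, Gstt3 and the Sult1c2a row ENSRNOG00000042111 were called higher in liver at 2.15, 3.54 and 3.67 on the log2 scale, and in kidney as well.

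Gstp1, Gstm5, Sult4a1 and Sult5a1 were the rat rows called lower in liver. Gstp1, the pi-class enzyme that is low in normal hepatocytes, had 20.5 FPKM in the male and 23.3 FPKM in the female liver, while kidney, heart and brain held between 27.4 and 272 FPKM. The groups did not overlap, and the log2 difference was -1.86 ± 0.32 (SE, limma adjusted p = 0.0028). The other 3 rest partly on brain or on low values: with the brain columns left out, Sult4a1 was at -0.22 (limma adjusted p = 0.658) and Gstm5 at -0.85, and Sult5a1 never exceeded 2.21 FPKM in the 8 libraries. Sult5a1 lost its call without the male liver (-0.97, limma adjusted p = 0.076) and without the female brain (-0.97). The 6 rows not called in either direction were GSTO2, Gsto2, Gsto1, Gstt4, Mgst3 and Sult2b1, and among them Gsto1, of the omega class, had 131 and 78.4 FPKM in the male and female liver against 159 and 146 FPKM in the male and female kidney.

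In kidney against the mean of liver, heart and brain, 17 of 44 rat rows were called higher, against 11.9% of all genes, and 11 lower, against 11.1%, so that 28 of 44 were called in all, against 23.0%. The 7 rows that passed the filter only through liver all fell among the lower ones, and without them 17 of 37 rows were called higher and 4 lower, the lower share then being near the background. The highest kidney levels belonged to the Sult1c2a row ENSRNOG00000042111, a sulfotransferase of the 1C subfamily, with 368 FPKM in the male and 451 FPKM in the female kidney, and to the theta-class row Gstt3, with 374 FPKM in the male and 269.5 FPKM in the female. The Sult1c2a row had 117 FPKM in the male and 101.4 FPKM in the female liver and under 0.5 FPKM in heart and brain (log2 difference 6.19 ± 0.19, SE, limma adjusted p = 8.5e-06). All 5 Sult1c2 and Sult1c2a rows were called higher in kidney, as was Sult2b1, which in humans sulfates cholesterol and pregnenolone. These 5 rows lie on chromosome 9 with the single Sult1c3 row, which went the other way: Sult1c3 had 0.839 FPKM in the male and 1.92 FPKM in the female kidney, and 171 and 154 FPKM in the male and female liver. Because their symbols repeat, reads could be shared among the Sult1c2 and Sult1c2a rows, and they are not independent. The Sult1c2 rows ENSRNOG00000040215 and ENSRNOG00000050885 had 20.2 and 44.4 FPKM in the male kidney and 54.6 and 54.0 FPKM in the female kidney, against 6.71 to 9.96 FPKM in liver. GSTA1 and Gsta1 were called higher in kidney with log2 differences of 1.44 and 1.69, but the differences were 0.78 and 0.81 without the male kidney and 0.83 and 0.99 with the brain columns left out. Gsto1 was called at 1.34 and was at 0.91 with the brain columns left out.

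The 11 rat rows called lower in kidney were mostly those of liver. Ugt2b, Ugt2b1, Ugt2b10, Ugt2b37 and Ugt2a3 had at most 0.149 FPKM in either kidney, and Sult2a1 and Sult2a6 had at most 0.276 FPKM. Sult2a1 and Sult2a6 were not called without the female kidney (limma adjusted p = 0.104 and 0.0915). Mgst2 had 0.239 FPKM in the male and 0.677 FPKM in the female kidney, below the heart columns as well (5.56 and 4.62 FPKM in the male and female). The mu-class row Gstm7 had 5.12 FPKM in the male and 5.34 FPKM in the female kidney, below all 6 other libraries, which ran from 19.9 to 115 FPKM. Gstm5 was called at -1.33 and, with the brain columns left out, was at -0.71. Sult1c3 was called at -1.28, but without the male kidney its difference was -0.90, and with a pseudocount of 0.1 it was -0.08.

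Set directly against liver, kidney had 7 of the 44 rows called higher, against 12.7% of all genes, and 23 called lower, against 13.7%, which made 30 of 44 against 26.4%. Without the 7 rows that passed the filter only through liver, 7 of 37 were called higher and 16 lower. The median difference was -1.74 over the 44 rows, -0.62 without those 7, and -0.02 over all genes. Gstp1 showed the largest kidney excess, with 272 FPKM in the male and 209.6 FPKM in the female kidney against 20.5 and 23.3 FPKM in the male and female liver (log2 difference 3.39 ± 0.39, SE, limma adjusted p = 0.00088). The Sult1c2 row ENSRNOG00000031833 had 101.7 FPKM in the male and 106 FPKM in the female kidney, against 17.6 and 19.1 FPKM in the male and female liver. The other 2 Sult1c2 rows, the Sult1c2a row ENSRNOG00000042111 and Sult2b1 were higher in kidney by 1.89 to 2.23 on the log2 scale. Sult5a1 was called at 1.24 on levels of at most 1.96 FPKM, and was not called without the male kidney (0.96), the female liver (1.39) or the male liver (1.10).

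**Figure D2:**
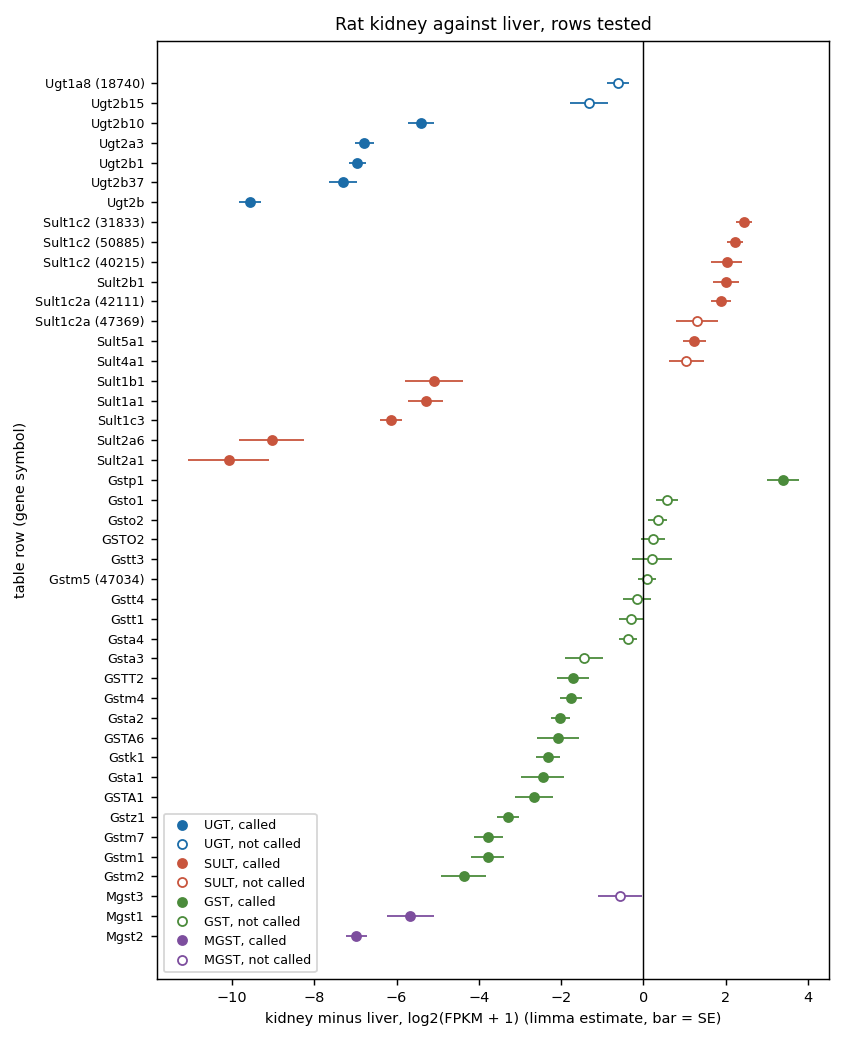
Kidney minus liver on the log2(FPKM + 1) scale for the 44 rat rows tested, as limma estimates with their SE, grouped by family, with filled points for called rows and open points for rows not called. The SULT rows lie on both sides of 0, from -10.08 for Sult2a1 to 2.44 for a Sult1c2 row, and Gstp1 is the one called GST row above it. Each of the 7 UGT rows lies below 0. For 5 of these UGT rows the filter had fixed this direction, and the other 2 were not called.

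The size of the liver excess over kidney varied widely within families. Sult2a1 was lower in kidney by 10.08 ± 0.99 and Ugt2b by 9.56 ± 0.26 on the log2 scale (SE), Mgst2 by 6.98 ± 0.25 and Mgst1 by 5.66 ± 0.58. For Ugt2b, which passed the filter only through liver, the filter had fixed the direction. By contrast Ugt1a8 ENSRNOG00000018740 (-0.62 ± 0.26), Gstt1 (-0.29 ± 0.30), Gsta4 (-0.37 ± 0.22), Gstt3 (0.21 ± 0.48) and Gsto1 (0.58 ± 0.27) were not called in either direction. Gsta4 handles the lipid peroxidation product 4-hydroxynonenal, and its 4 kidney and liver libraries ran from 37.7 to 64.8 FPKM. GSTA6 was called at -2.07 but not without either liver library, Gsta1 at -2.44 but not without the female liver, and GSTT2 at -1.71 but not without the female kidney or the male liver.

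Few rat conjugation enzymes were enriched in brain or heart. In brain against the mean of kidney, liver and heart, 3 of 44 rows were called higher, against 17.6% of all genes, and 34 lower, against 27.1%, or 37 of 44 in all, against 44.7%. Without the 7 rows that passed the filter only through liver, 3 of 37 were called higher and 27 lower. Sult4a1, a sulfotransferase known from neurons, had 78.3 FPKM in the male and 74.9 FPKM in the female brain, against at most 3.06 FPKM in kidney, liver and heart (log2 difference 5.52 ± 0.35, SE, limma adjusted p = 3.1e-05). Gstm5 had 19.2 FPKM in the male and 16.3 FPKM in the female brain, and heart was next with 9.97 and 6.17 FPKM in the male and female. Gstt4 had 5.58 FPKM in the male and 2.40 FPKM in the female brain and at most 0.374 FPKM in the other tissues tested, so it passed the filter only through brain. Sult1d1, not tested, was also highest in brain, at 0.953 FPKM in the male and 1.62 FPKM in the female. Gstm1 kept a level of 52.0 FPKM in the male and 46.7 FPKM in the female brain, and was not called (-0.89, limma adjusted p = 0.050).

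In heart, 1 of 44 rat rows was called higher, against 16.7% of all genes, and 30 lower, against 17.3%, or 31 of 44 in all, against 34.0%. The row was Mgst3, a microsomal transferase with peroxidase activity, with 237 FPKM in the male and 69.5 FPKM in the female heart, against 122 and 22.2 FPKM in the male and female kidney and 128 and 48.2 FPKM in the male and female liver. Its log2 difference of 1.80 ± 0.44 (SE, limma adjusted p = 0.013) was not called without the animal block (limma adjusted p = 0.085), without either heart library (limma adjusted p = 0.069 and 0.129) or with the brain columns left out (0.99). Gstm2 was the highest GST row in heart, at 87.4 FPKM in the male and 184 FPKM in the female, and was not called (1.10, limma adjusted p = 0.076). All 7 UGT rows tested and 12 of 13 SULT rows were lower in heart. Without the rows that passed the filter only through liver, which could only be low here, these were 2 of 2 UGT and 10 of 11 SULT rows, and 23 of 37 rows in all.

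A few rat GST rows were far higher in testis than in the somatic tissues. With 1 testis library there is no test, and a row was counted where testis lay at least 2 log2(FPKM + 1) units above every kidney, liver, heart and brain column. This held for 5 of the 48 rows of at least 1 FPKM, against 11.9% of all genes, so the share was no higher than the background. All 5 were GST rows. Gstm5 had 655 FPKM in testis against at most 19.2 FPKM in the somatic columns, and Gstt4 had 311 FPKM against at most 5.58 FPKM. Gsto2 had 96.3 FPKM in testis against at most 2.65 FPKM, GSTO2 had 77.9 FPKM against at most 2.35 FPKM, and Gstm6 had 76.8 FPKM against at most 1.07 FPKM. GSTO2 and Gsto2 share a symbol and could share reads. Gstk1, the mitochondrial and peroxisomal kappa-class enzyme, and Mgst3 lay at least 2 units below every somatic column, with 0.729 and 0.732 FPKM in testis, against 0.859% of all genes.

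**Figure D3:**
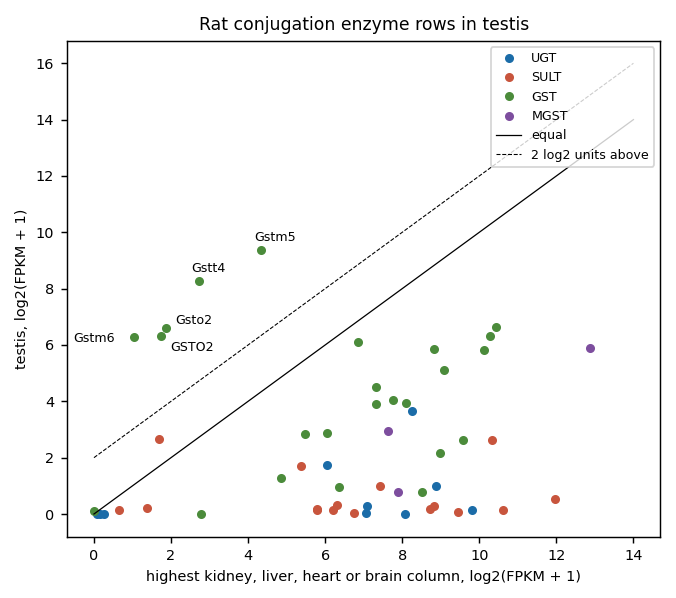
Rat testis level against the highest kidney, liver, heart or brain level of each of the 53 rows, both as log2(FPKM + 1), coloured by family, with a solid line for equal levels and a dashed line 2 units above it. Gstm5, Gstt4, Gsto2, GSTO2 and Gstm6 lie above the dashed line, and most UGT and SULT rows lie near 0 on the testis axis.

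Rat ovary had no row 2 units above or below all somatic columns, against 0.576% and 0.0231% of all genes. It did hold high levels of several glutathione enzymes, with 317 FPKM of Gsta1, 301 FPKM of Gstt3, 252 FPKM of Mgst1 and 158 FPKM of Mgst2. Each of these was below the highest liver or kidney level of the same row. Its UGT rows summed to 9.41 FPKM and its SULT rows to 21.7 FPKM. Sult5a1 was highest in ovary at 6.39 FPKM, next to 5.37 FPKM in testis.

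The rat livers of the male and the female differed most in the Sult2a enzymes, which sulfate hydroxysteroids and bile acids. A row was counted where both livers lay at least 2 log2(FPKM + 1) units apart, with no test, since there was 1 animal of each sex. Sult2a1 had 376 FPKM in the male and 3986.5 FPKM in the female liver, which was 10.6-fold higher in the female. Sult2a6 had 207 FPKM in the male and 1566 FPKM in the female liver (7.58-fold higher in the female), and Sult2a2 was listed at 0 in the male and had 692 FPKM in the female. These 3 of the 44 rows of at least 1 FPKM in a liver were higher in the female, against 0.572% of all genes, and all 3 lie on chromosome 1. Reads could be shared among these Sult2a rows, so they are not independent, and the exact 0 of Sult2a2 can be a failed estimate. Gstm3 was the 1 row higher in the male by this rule, with 5.84 FPKM in the male and 0.123 FPKM in the female liver, against 1.91% of all genes. By between 1 and 2 units, Gstt3, Sult4a1, GSTA1, Ugt2b10, Sult1b1 and Gsta1 were higher in the female liver, and Gstm1, Ugt2b37, Gstm2 and Mgst3 in the male one. For Sult4a1 this rested on low values, 0 FPKM in the male and 1.35 FPKM in the female liver. The share of all genes in this range is not given.

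**Figure D4:**
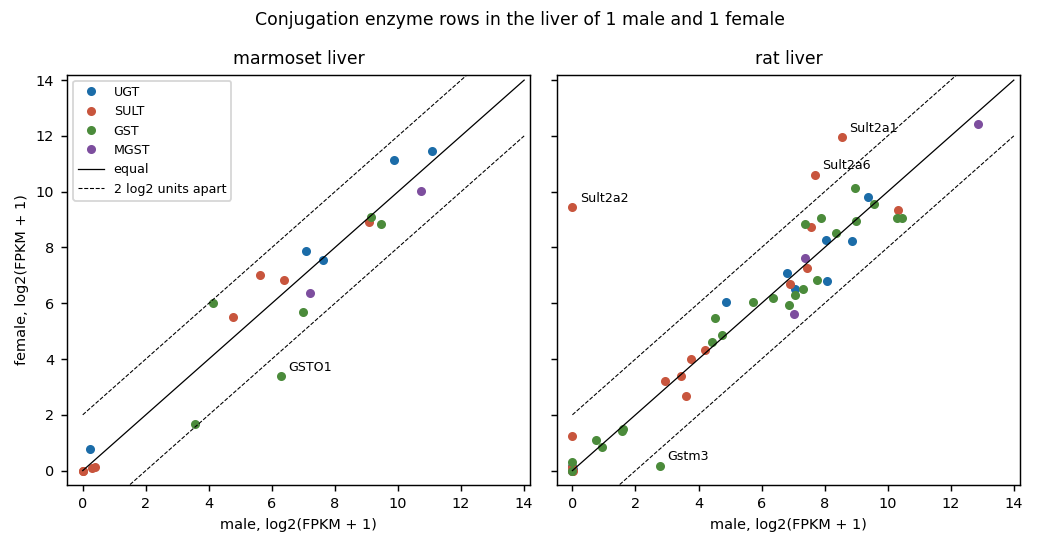
Male (horizontal) against female (vertical) liver level of each row as log2(FPKM + 1), 1 animal of each sex, for the 21 marmoset rows (left, 5 by table symbol and 16 named through the name table) and the 53 rat rows (right). Dashed lines mark differences of 2 units: Sult2a1, Sult2a2 and Sult2a6 lie above them and Gstm3 below them in the rat, and GSTO1 lies below them in the marmoset.

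In rat kidney, Mgst3 (122 FPKM in the male and 22.2 FPKM in the female) and Sult1b1 (17.5 FPKM in the male and 2.78 FPKM in the female) were higher in the male, 2 of 35 rows against 2.27% of all genes. Sult1b1 thus ran the other way in kidney than in liver, where the female had 424 FPKM and the male 189 FPKM. The Sult1c2a row ENSRNOG00000047369 was higher in the female kidney, with 17.0 FPKM in the male and 72.8 FPKM in the female, against 0.403% of all genes. Proximal tubule markers moved in the same sense as the rows higher in the male, summing to 5850 FPKM in the male and 1371 FPKM in the female kidney, and their part in the difference was not tested. No row differed by 2 units in rat heart, where 0.612% of all genes were higher in the male and 0.224% in the female, or in rat brain, where the shares were 0.316% for the male and 0.442% for the female.

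In the marmoset, the 5 rows found by table symbol were UGT3A1, UGT3A2, UGT2A1, SULT2B1 and GSTM2. UGT3A1 and UGT3A2 belong to a UGT family that in humans uses sugars other than glucuronic acid. SULT2B1 and UGT2A1 stayed under 0.7 FPKM in every column and were not tested. UGT3A1 had 135 FPKM in the male and 232 FPKM in the female liver, 55.7 and 58.1 FPKM in the male and female kidney, and at most 0.280 FPKM elsewhere. UGT3A2 had 197 FPKM in the male and 186 FPKM in the female liver, 115 and 73.3 FPKM in the male and female kidney, and at most 0.145 FPKM elsewhere. Both were thus liver and kidney genes, with no level of 1 FPKM in heart, brain, testis or ovary. The mu-class GSTM2 was broader: it had 16.4 FPKM in the male and 62.7 FPKM in the female liver, 9.94 and 10.6 FPKM in the male and female kidney, 3.61 to 13.5 FPKM in heart and brain, 19.3 FPKM in the testis column and 48.1 FPKM in ovary.

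All 3 tested marmoset rows were called higher in liver than in the mean of kidney, heart and brain, against 21.3% of the 15100 genes tested and 37.8% called in either direction. Their log2 differences were 5.42 ± 0.25 for UGT3A1, 5.36 ± 0.20 for UGT3A2 and 2.05 ± 0.37 for GSTM2 (SE, limma adjusted p = 1.7e-05, 6.9e-06 and 0.0039). UGT3A1 and UGT3A2 were also called higher in kidney (3.26 and 3.96), against 13.7% of all genes (23.6% in either direction), and lower in heart, against 18.2% (31.3% in either direction). All 3 were called lower in brain, against 28.8% (45.8% in either direction), although GSTM2 was not called there without the female brain (limma adjusted p = 0.118) or without the animal block (limma adjusted p = 0.071). Kidney against liver gave 3 lower calls, against 12.5% of all genes (25.0% in either direction), at -1.62 for UGT3A1, -1.57 for GSTM2 and -1.05 for UGT3A2. Each of these lost its call when either kidney library was left out, with limma adjusted p between 0.0501 and 0.283, and only UGT3A1 was called without the animal block.

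The 16 marmoset rows named through the name table widened the picture. With them 18 of 21 rows were tested. In liver 15 were called higher, against 21.3% of all genes, and 2 lower, against 16.5%. In kidney 9 were higher, against 13.7% of all genes, and 3 lower, against 9.89%. In heart 2 were higher, against 13.1% of all genes, and 12 lower, against 18.2%. In brain 1 was higher, against 17.0% of all genes, and 15 lower, against 28.8%. SULT2A1 passed the filter only through liver, SULT1A3 only through kidney and SULT4A1 only through brain, so these had to come out higher there. The 2 rows lower in liver were SULT1A3 and SULT4A1, and SULT2A1 and SULT4A1 were among the 3 lower in kidney. The filter kept these rows from being high there, so those lower counts cannot be set against the shares of all genes. In the same way, the lower count in heart includes SULT2A1 and SULT4A1, and the lower count in brain includes SULT2A1. UGT1A1, the bilirubin enzyme, had 2169 FPKM in the male and 2825.5 FPKM in the female liver, against 249 and 164 FPKM in the male and female kidney. UGT2B4 had 940 FPKM in the male and 2249 FPKM in the female liver, against 184 and 158 FPKM in the male and female kidney. SULT2A1 was nearly confined to liver among these columns, with 539 FPKM in the male and 484 FPKM in the female liver and at most 1.76 FPKM elsewhere (log2 difference 8.50 ± 0.18, SE, limma adjusted p = 3.3e-06). SULT1E1, SULT1B1 and SULT1C2 were lower than SULT2A1 in liver and were shared with kidney. SULT1E1, the oestrogen sulfotransferase, had 83.4 FPKM in the male and 113 FPKM in the female liver, against 32.0 and 41.1 FPKM in the male and female kidney. SULT1B1 had 48.5 FPKM in the male and 129 FPKM in the female liver, against 34.4 and 76.0 FPKM in the male and female kidney, and SULT1C2 had 26.3 and 44.1 FPKM in the male and female liver, against 28.1 and 44.6 FPKM in the male and female kidney. SULT1A3 had 4.42 FPKM in the male and 1.97 FPKM in the female kidney and was the 1 row called higher in kidney than in liver (1.81 ± 0.28, SE, limma adjusted p = 0.0040).

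For SULT2A1, named through the name table, the male and female livers differed by 0.16 on the log2 scale. For Sult2a1 in the rat the difference was -3.40. The tables were normalized separately and this contrast between species was not tested.

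**Figure D5:**
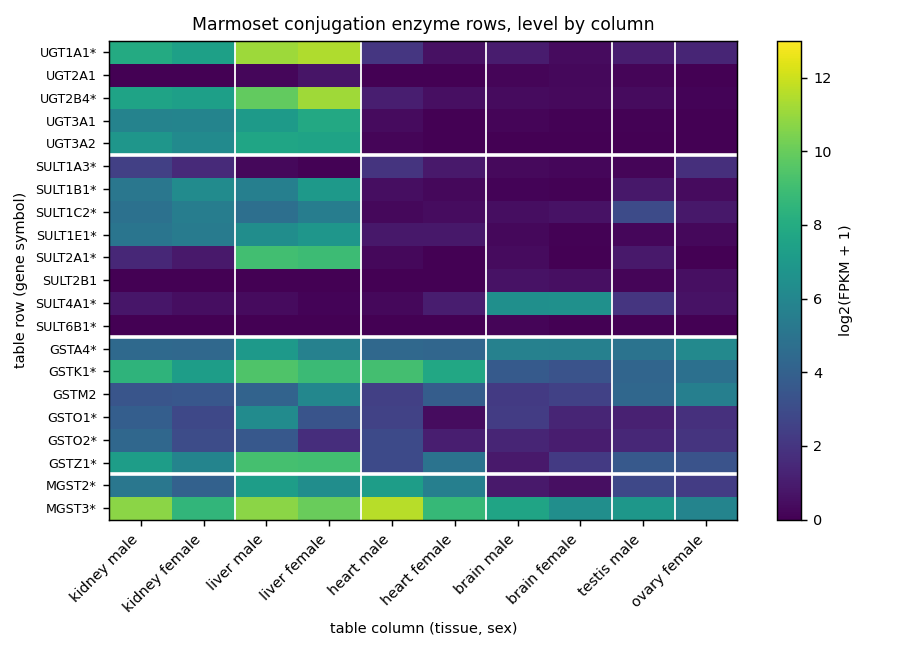
Level of 21 marmoset rows in the 10 table columns as log2(FPKM + 1), with the 16 rows named through the name table marked by an asterisk and white lines between the UGT, SULT, GST and MGST rows (top to bottom). The UGT rows other than UGT2A1 are bright in liver and kidney, SULT4A1 in brain alone, and MGST3 in all 10 columns.

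Among the marmoset glutathione enzymes named through the name table, MGST3 had the highest level, with 3159 FPKM in the male and 411 FPKM in the female heart, 1698 and 376 FPKM in the male and female kidney, and 1691 and 1038 FPKM in the male and female liver. MGST3 was called higher in liver, but its difference was 0.47 with the brain columns left out and 0.74 without the female liver. GSTK1 was also called higher in liver, and was at 0.99 with the brain columns left out. GSTK1 had 557 FPKM in the male and 223 FPKM in the female heart and was called higher there (1.63 ± 0.27, SE, limma adjusted p = 0.0032), but with the brain columns left out its difference was -0.034 (limma adjusted p = 0.922). MGST2 was called higher in heart at 2.38, and was at 0.71 with the brain columns left out. GSTZ1 had 567 FPKM in the male and 539 FPKM in the female liver, against 152 and 58.3 FPKM in the male and female kidney. GSTO2 was highest in kidney, with 19.2 FPKM in the male and 7.05 FPKM in the female, and GSTO1 in liver. GSTA4 was the leading GST row in brain, at 51.9 FPKM in the male and 50.1 FPKM in the female. SULT4A1 was the 1 row of the 18 called higher in brain, with 87.4 FPKM in the male and 92.3 FPKM in the female and at most 3.07 FPKM elsewhere (5.99 ± 0.26, SE, limma adjusted p = 8.8e-06). Since SULT4A1 passed the filter only through brain, the filter had fixed this direction.

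No marmoset row reached 2 log2 units above all somatic columns in the testis column or in ovary, against 3.69% and 0.586% of all genes, and none lay 2 units below them, against 0.453% and 0.0786%. For the sexes, none of the 5 rows differed by 2 units in kidney, liver, heart or brain. Of the rows named through the name table, GSTO1 was higher in the male liver (76.6 FPKM in the male and 9.47 FPKM in the female) and heart, MGST3 in the male kidney and heart, and GSTZ1 in the female heart (6.51 FPKM in the male and 30.5 FPKM in the female). Over all genes the male libraries were the higher ones more often, with 6.27% at least 2 units higher in the male liver and 0.704% in the female liver, 8.22% and 0.62% in the male and female heart, and 3.27% and 0.119% in the male and female kidney. In brain the shares were 0.477% for the male and 0.0462% for the female.

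Genes of the marmoset and the rat were set side by side within each table, as kidney minus liver in each animal, for 18 pairs of rows with a shared symbol. Of the marmoset rows in these pairs, only GSTM2, SULT2B1 and UGT2A1 were found by table symbol. The others, which include all those given below, were named through the name table. Kidney minus liver was -7.61 in the male and -8.01 in the female marmoset for SULT2A1, and -8.21 in the male and -11.96 in the female rat for Sult2a1, on the log2 scale. MGST2 and GSTZ1 were likewise lower in kidney in all animals. SULT1C2 lay at 0.09 and 0.02 in the male and female marmoset, while the 3 rat Sult1c2 rows lay between 1.46 and 2.60. The 1 pair of opposite sign in all animals was the omega-class GSTO1, at -2.38 and -0.55 in the male and female marmoset. Gsto1 was at 0.28 and 0.89 in the male and female rat. The share of opposite signs over all genes was not computed. SULT4A1 was highest in brain in both tables.

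The genes that supply these enzymes were taken from fixed lists. Of 10 rat genes of glutathione supply and mercapturate formation, all 10 were called higher in kidney than in the mean of liver, heart and brain, while in liver 4 were called higher and 1 lower. Over all rat genes 11.9% were called higher in kidney, and in liver 19.6% higher and 19.1% lower. Of 11 marmoset genes, 6 were called higher in kidney and none lower, and in liver 10 were called higher and 1 lower, against 13.7% of all marmoset genes higher in kidney, and 21.3% higher and 16.5% lower in liver. Gclc, the catalytic subunit of the enzyme that limits glutathione synthesis, had 673 FPKM in the male and 897 FPKM in the female rat kidney, against 19.9 and 30.3 FPKM in the male and female liver. In the marmoset GCLC had 19.9 FPKM in the male and 12.3 FPKM in the female kidney, against 59.8 and 69.5 FPKM in the male and female liver. Kidney minus liver was thus 4.93 ± 0.26 in the rat and -1.97 ± 0.27 in the marmoset on the log2 scale (SE, limma adjusted p = 2.8e-05 and 0.0022). Ggt1, which starts the breakdown of glutathione conjugates, was far higher in kidney in both species, with 961 FPKM in the male and 366 FPKM in the female rat kidney, against 0.883 and 1.32 FPKM in the male and female liver. In the marmoset GGT1 had 664 FPKM in the male and 235 FPKM in the female kidney, against 37.9 and 45.6 FPKM in the male and female liver.

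For sulfation, the PAPS synthases divided between the organs of the rat. Papss1 had 39.2 FPKM in the male and 18.8 FPKM in the female kidney, against 4.24 and 2.27 FPKM in the male and female liver, and was higher in kidney by 2.77 ± 0.39 (log2, SE, limma adjusted p = 0.0022). Papss2 had 9.02 FPKM in the male and 7.33 FPKM in the female kidney, against 78.4 and 77.5 FPKM in the male and female liver, and was lower in kidney (-3.11 ± 0.26, SE, limma adjusted p = 0.0002). Over the sulfate list, 4 of 9 rat rows were called higher and none lower in kidney, and 3 higher and 2 lower in liver, while 3 of 6 marmoset rows were called higher and none lower in kidney, and 3 higher and 2 lower in liver. Against the shares of all genes just given, the liver counts of the rat are near the background. For glucuronidation, the partner genes called higher in liver were 2 of 4 in the rat and 3 of 3 in the marmoset, with none lower. Of all genes, 19.6% were higher in rat liver and 21.3% in marmoset liver. In kidney the rat likewise had 2 of 4 higher and none lower, against 11.9% of all genes higher. The marmoset had none higher and 1 of 3 lower in kidney, against 13.7% of all genes higher and 9.89% lower. Ugdh, which makes UDP-glucuronic acid, had 101.5 FPKM in the male and 55.0 FPKM in the female rat liver, against 68.9 and 25.0 FPKM in the male and female kidney.

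Of 9 regulators of conjugation genes, 7 were called higher in liver in each species and none lower, against 21.3% of all genes higher in the marmoset and 19.6% in the rat. The xenobiotic receptor Nr1i2 (PXR) had 54.6 FPKM in the male and 46.6 FPKM in the female rat liver, against 3.66 and 4.94 FPKM in the male and female kidney. Nr1i3 (CAR) had 60.8 FPKM in the male and 11.4 FPKM in the female rat liver, and at most 0.112 FPKM in kidney, heart and brain. Other conjugation enzymes, which methylate, acetylate or join amino acids, were called higher in liver for 7 of 9 rat genes and lower for 1, and higher for 4 of 6 marmoset genes with none lower, against the same shares.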

How the data were processed

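Polyadenylated RNA of marmoset and rat tissues was sequenced, per the labels. The authors deposited 1 table of FPKM per species, normalized across tissues as its name says, though how is not stated in the sources used. TopHat 1.4.0 and Cufflinks 2.0.0 are named in the submitters' processing notes. Builds, annotations and strand handling are also not given there, so no coordinates or sequences are printed. Without counts the sequencing depth is unknown, no interval that needs it is given, and an exact 0 can be a failed estimate. FPKM divides reads among similar transcripts, so rows of close paralogs are uncertain.

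The wallaby table (10 columns of per-sample values) and the elephant samples were not used. A separate fit for each species took log2(FPKM + 1), a scale that compresses the changes of low genes. It used limma 3.58.1 (R 4.3.3) and allowed the variance to follow the mean level. Genes needed at least 1 FPKM in 2 of the 8 kidney, liver, heart and brain libraries. P-values were adjusted by Benjamini-Hochberg over all genes tested. The procedure was tested on simulated data. The animal was a block, because the male and the female each gave every tissue. Male minus female deviations correlated between tissues (r from 0.541 to 0.716 in the marmoset and 0.143 to 0.506 in the rat, across genes, which are not independent replicates). Rows were named with values where they reached 10 FPKM, were called, or stood in a count of 5 or fewer. The members, the lists and the tests were chosen with earlier results of these data known. The alternatives were another pseudocount, no filter or a stricter filter of 5 FPKM, no animal block, median-ratio rescaling, no trend, leaving out the brain columns or each library, and, chosen after the data were seen, the name table and leaving out rat rows that passed the filter only through liver.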

Additional observations from a re-analysis of the deposited data

Results flagged for a closer look

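The sign of kidney minus liver differed between the species in every animal for the results below. The tables were normalized separately, so the difference itself was not tested, and each species had 2 animals. Values are means over the male and the female on the log2(FPKM + 1) scale. GSTO1, named through the name table in the marmoset, was at -1.46 in the marmoset and Gsto1 at 0.58 in the rat. Among the 34 listed pathway genes with 1 row in each table, 8 did the same. The share of opposite signs over all genes was not computed, so whether these counts are unusual is not known. GCLC, which limits glutathione synthesis, was at -1.97 in the marmoset and 4.93 in the rat, and its modifier subunit GCLM at -2.22 in the marmoset and 3.87 in the rat. ANPEP, an aminopeptidase that cleaves cysteinylglycine conjugates, was at -4.44 in the marmoset and 1.22 in the rat. GSR, the glutathione reductase, was at -0.78 in the marmoset and 0.95 in the rat, and OPLAH, which returns 5-oxoproline to glutamate, at -1.46 in the marmoset and 1.17 in the rat. SLC35D1, a nucleotide sugar transporter, was at -2.54 in the marmoset and 1.15 in the rat, and SLC35B3, a PAPS transporter, at -0.81 in the marmoset and 0.63 in the rat. NFE2L2, a regulator of glutathione genes, ran the other way, at 0.32 in the marmoset and -0.72 in the rat.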

How the results depend on the processing

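Of 235 combinations of a row and a comparison that were called, counting marmoset rows named through the name table, 184 stayed past the threshold under every alternative run, and over all 3401 refits 154 lost the call and 1 changed sign (GSTK1 in marmoset heart with the brain columns left out, at -0.034). Without the replicate block the rat rows called were 38 in liver, 28 in kidney, 30 in heart, 36 in brain and 30 in kidney against liver, and the marmoset rows called in kidney against liver were 1. That count was also 1 with a pseudocount of 0.1 and with median-ratio rescaling. With the rows of the name table the marmoset counts were 17 in liver, 12 in kidney, 14 in heart, 16 in brain and 12 in kidney against liver. Leaving out each library in turn gave 29 to 38 rat rows called in liver, 22 to 28 in kidney, 25 to 32 in heart, 30 to 37 in brain and 21 to 31 in kidney against liver, and in the marmoset 3 in liver, 2 in kidney, 2 in heart, 2 to 3 in brain and 0 to 3 in kidney against liver. Leaving out the 7 rat rows that passed the filter only through liver, an alternative chosen after seeing the data, left 31 called in liver, 21 in kidney, 24 in heart, 30 in brain and 23 in kidney against liver. With a pseudocount of 0.1, 1 rat row differed by 2 units between the sexes in heart and 1 in brain. Median-ratio rescaling moved the median of all genes from -0.06 to -0.29 in rat liver and from -0.28 to 0.08 in rat brain, and in the marmoset from 0.06 to -0.19 in liver and from -0.34 to 0.03 in brain. It turned the higher and lower calls over all genes to 2260 and 3372 in rat liver (2849 and 2788 before), 3429 and 2976 in rat brain (2567 and 3944), 2133 and 1631 in rat kidney against liver (1856 and 1994), 2455 and 3143 in marmoset liver (3223 and 2491), 3474 and 3371 in marmoset brain (2568 and 4354) and 2163 and 1558 in marmoset kidney against liver (1880 and 1895). The rat rows called were then still 34 higher and 4 lower in liver, and 7 higher and 23 lower in kidney against liver. The cause of these changes was not tested. Each tissue had 2 libraries and the depth is unknown, so small differences were not detectable.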
